A study of Mus musculus with 6 samples.

Results

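Histone acetylation is set by enzymes that place acetyl groups on lysines, by enzymes that take them off and by proteins that read the mark or hold the enzymes in complexes. A group of 34 such genes was examined in TC-1/A9 cells, MHC class I-deficient mouse tumour cells that grew out of TC-1 tumours in immunized mice. Their parental TC-1 line was made from C57BL/6 lung cells by transfection of HPV16 E6/E7 and an activated Ha-ras oncogene, so both groups of samples carry these genes and come from a single line. The 34 genes are 8 acetyltransferases, 4 class I, 4 class IIa and 2 class IIb deacetylases, the class IV deacetylase Hdac11, 6 sirtuins, 2 bromodomain readers and 7 corepressor scaffolds and subunits. They were listed by name and function, with earlier results of these data known. Of the 34, 28 had a tested probe named here and are described below, out of 7807 genes so measured. Where a gene had several probes, the probe with the highest mean log2 signal over the 6 arrays was taken. Hdac1, Hdac9, Hdac11, Ncoa1, Ncoa3 and Ncor1 had no tested probe named here and are not analysed.

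RNA of TC-1/A9 cells grown with IFNγ (n = 3) or left untreated (n = 3), called biological triplicates in the methods of the paper, was measured on Mouse WG6 bead arrays from Illumina. The labels give 50 U/ml of IFNγ for 24 h, and those methods give a higher dose for the same arrays. Signals are log2 bead intensities, quantile normalized, and a probe counted as detected on an array at a detection p of 0.01 or less. The groups were compared with limma over 13545 probes and called at a false discovery rate (FDR) below 0.01. Signals of different probes cannot be set against each other, since each probe binds with its own strength. Among the markers of lung epithelium fixed for a check of the cells, 0 of 8 had a tested probe named here, against 3 of 8 of mesenchyme (Vim, Pdgfra and Fn1), 1 of 9 of leukocytes (Cd68) and 1 of 4 of endothelium (Kdr), and none of these 5 was called. IFNγ replicate 3 stood apart from its group, with r of 0.984 and 0.986 over the tested probes against the other IFNγ arrays, where the other pairs of one group had r of 0.993 to 0.996. Its part in the results was measured by leaving it out: again 0 genes of the group were called in either direction, and their median log2 fold change (IFNγ over untreated) was -0.016, beside 0.0015 with all arrays.

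Acetylation of histone tails loosens chromatin and recruits bromodomain proteins, and interferon signalling is known to bring acetyltransferases such as CBP to the promoters of its target genes. The lysine 18 mark of histone H3, which the study followed at promoters of antigen-processing genes, is placed mainly by p300 and CBP and can be removed by SIRT7. The question here was whether the transcripts of this machinery themselves changed with IFNγ. The arrays measure the RNA of the enzymes and not their activity, their place on chromatin or the mark itself.

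No gene of the group passed the test in either direction after IFNγ. Of the 28 genes, 0 were called higher, where 1.27% of all tested genes were, and 0 were called lower, where 0.0256% were. At an FDR below 0.05 the counts were also 0 and 0, beside 1.56% and 0.0512% of all genes. Without adjustment, at p under 0.05, 0 of the 28 were higher and 0 lower, where 4.42% of all genes were higher and 4.07% lower. At shares this low, counts of 0 among 28 genes do not set the group apart from other genes. The smallest adjusted p of the 28 was 0.67 and the largest 0.97. Of the 38 probes that stand for the 28 genes, 0 were called and 2 had an unadjusted p under 0.05, namely the dimmest probes of Rbbp7 and Brd2.

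The differences were small in both directions. Log2 fold changes (IFNγ over untreated) ran between -0.22 for Crebbp and 0.24 for Rbbp7, so the largest change was 1.18-fold, and 14 genes had a positive and 14 a negative value. Their median was 0.0015, beside -0.015 over all 7807 genes, and the median size regardless of sign was 0.082, beside 0.10. Most genes of these cells lay in the same range, since 86.3% of all tested genes had a change no larger than that of Rbbp7. The arrays did respond: Irf1, an interferon-induced transcription factor, had log2 signals of 12.53, 12.76 and 12.97 on the IFNγ arrays, against 10.04, 9.81 and 10.00 on the untreated arrays, which is a rise of 2.80 on the log2 scale (SE 0.13) with an adjusted p of 6.44e-09.

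**Figure D1:**
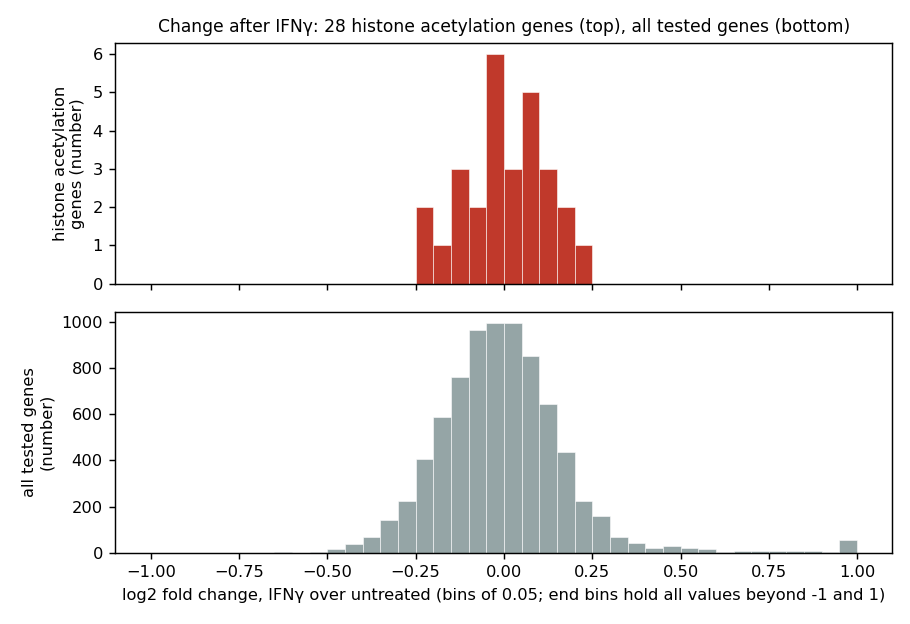
Distribution of the log2 fold change (IFNγ over untreated, bins of 0.05 on the x axis, number of genes on the y axis) for the 28 histone acetylation genes (top) and for all 7807 tested genes (bottom). The 28 genes lie between -0.22 and 0.24, while 50 of all tested genes lie above 1 and are pooled in the last bin.

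A missed threshold does not show that a transcript stayed the same, so the intervals are given. The 95% interval of the log2 fold change lay between -1 and 1 for all 28 genes and between -0.5 and 0.5 for 27 of them. The exception was Rbbp7, whose interval of -0.23 to 0.70 reached a 1.63-fold rise. The half-width of the interval was 0.22 to 0.47, with a median of 0.24. For scale, the smallest change that was called among all genes was 0.56 on the log2 scale. Changes well under that size were not detectable with 3 arrays a group. Crebbp, Kat2b, Sirt5 and Sirt6 were each not detected on at least 1 array and lay near the background. For them the interval holds for the measured signal, which understates a change of the transcript. No background was subtracted here, so this can also hold for other dim genes that were detected on all arrays. With neqc background correction the change of Sirt3 was -0.25 in place of -0.19, and that of Hdac6 0.12 in place of 0.08. With normexp background correction and an offset of 50 they were -0.17 and 0.07.

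**Figure D2:**
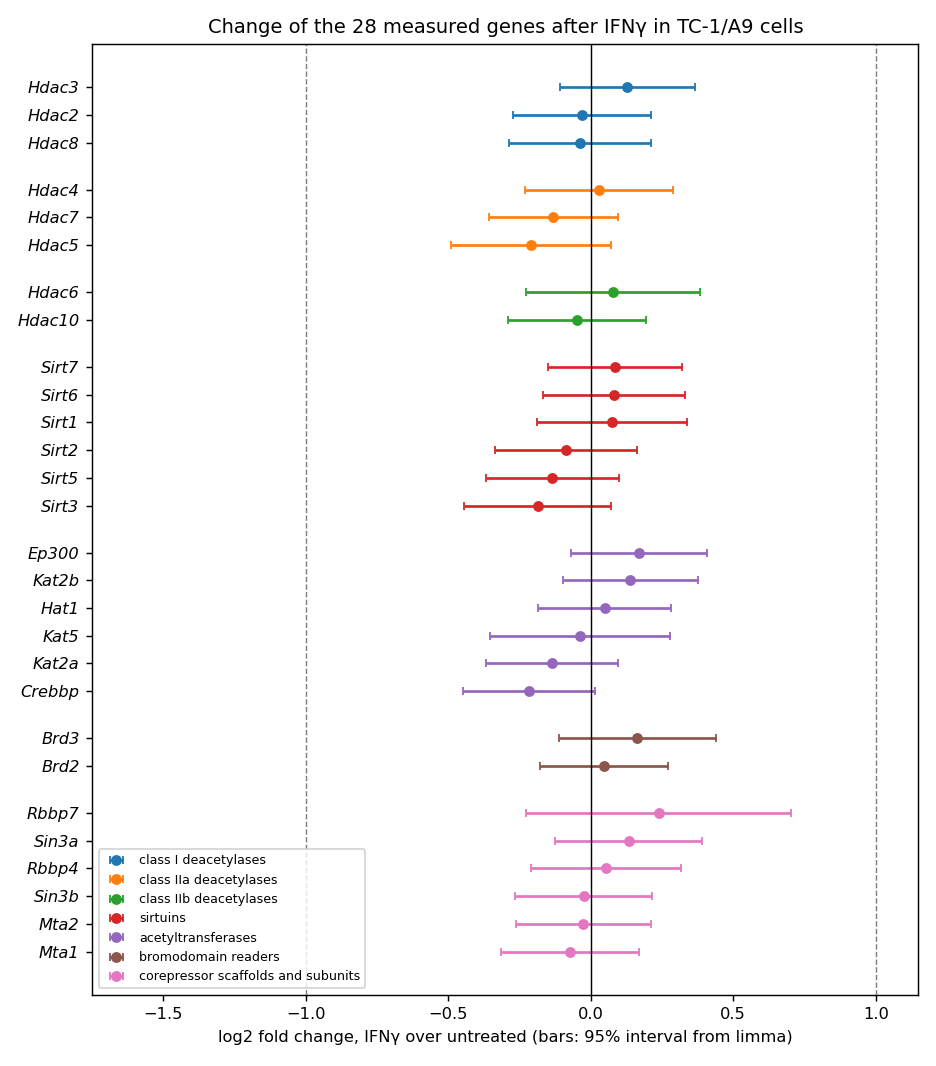
Log2 fold change (x axis, IFNγ over untreated) of each of the 28 measured genes, by class. Points are limma estimates, bars 95% intervals and dashed lines mark -1 and 1; no interval reaches these lines, and every interval spans 0.

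The acetyltransferases showed no common direction, with 3 positive and 3 negative values among the 6 measured. Ep300 encodes p300, a broad-range acetyltransferase and coactivator of many transcription factors. Its log2 signal was 7.84, 7.79 and 7.99 on the IFNγ arrays and 7.80, 7.59 and 7.74 on the untreated arrays. The groups overlapped, and the log2 fold change was 0.17 (95% interval -0.07 to 0.41, adjusted p = 0.74 from limma), or 0.11 without IFNγ replicate 3. Crebbp encodes CBP, the close relative of p300. Its signal was 6.20, 5.99 and 6.18 after IFNγ, against 6.38, 6.35 and 6.29 in untreated cells, near the lowest detected signals of the arrays (6.07 to 6.18), and it was detected on 2 of 3 IFNγ and 3 of 3 untreated arrays. All IFNγ values lay below all untreated values, with a log2 fold change of -0.22 (95% interval -0.45 to 0.02, adjusted p = 0.67). Without IFNγ replicate 3 the value was -0.25 (adjusted p = 0.55), and with neqc background correction it was -0.40. A dimmer probe of Crebbp gave 0.05 (adjusted p = 0.93), and the mean of both probes -0.08.

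The other acetyltransferases showed no larger shift. Kat2a, the GCN5 enzyme of the SAGA and ATAC coactivator complexes, had 8.84, 8.66 and 8.91 after IFNγ and 8.95, 8.93 and 8.93 in untreated cells. These groups did not overlap, yet the gap between IFNγ replicate 3 and the lowest untreated array was small, and the log2 fold change was -0.14 (95% interval -0.37 to 0.09, adjusted p = 0.77). Without IFNγ replicate 3 the change of Kat2a was -0.19 (adjusted p = 0.76). Kat2b, its paralog PCAF, was detected on 2 of 3 IFNγ arrays and on 0 of 3 untreated arrays. Its fitted change was 0.14 (adjusted p = 0.77), and no lower bound above 1 could be given for it. Kat5, the TIP60 enzyme of the NuA4 complex, averaged 7.47 ± 0.34 after IFNγ and 7.51 ± 0.07 in untreated cells (SD, n = 3 each), the wider spread coming from a value of 7.08 on IFNγ replicate 3. Without that array its change was 0.16 in place of -0.04, and neither value passed the test. Hat1, which acetylates newly made histone H4 in the cytoplasm, averaged 12.65 ± 0.12 after IFNγ and 12.60 ± 0.07 in untreated cells (SD, n = 3 each), a change of 0.05.

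Class I deacetylases are the nuclear enzymes that work in corepressor complexes, and 3 of the 4 were measured. Hdac2, a catalytic subunit of the NuRD, Sin3 and CoREST complexes, had log2 signals of 9.85, 9.63 and 9.84 after IFNγ and 9.92, 9.71 and 9.79 in untreated cells. The groups lay on top of each other, with a log2 fold change of -0.03 (95% interval -0.27 to 0.21, adjusted p = 0.96 from limma). Hdac3, the enzyme of the NCoR corepressor complex, had 9.97, 10.02 and 10.21 after IFNγ and 10.02, 9.89 and 9.91 in untreated cells, a change of 0.13 (95% interval -0.11 to 0.37, adjusted p = 0.78). IFNγ replicate 3 was its highest array, and without it the value was 0.06. Hdac8, which deacetylates the cohesin subunit SMC3, had a log2 fold change of -0.04.

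Class IIa deacetylases carry signals between cytoplasm and nucleus and bind MEF2 factors, and class IIb enzymes act largely in the cytoplasm. Hdac7 had log2 signals of 8.24, 8.13 and 8.19 after IFNγ, against 8.25, 8.40 and 8.29 in untreated cells. The replicate 1 arrays of both groups nearly met, but the groups did not overlap, and the change was -0.13 (95% interval -0.36 to 0.09, adjusted p = 0.77 from limma). Hdac5 had 8.32, 8.78 and 8.71 after IFNγ and 8.92, 8.79 and 8.74 in untreated cells, a log2 fold change of -0.21 (95% interval -0.49 to 0.07, adjusted p = 0.71). IFNγ replicate 1 was its lowest array, and without it the value was -0.07. Without IFNγ replicate 2 the change of Hdac5 was -0.30, and without IFNγ replicate 3 it was -0.27. Its next brightest probe had 8.34, 8.36 and 8.33 after IFNγ and 8.41, 8.59 and 8.63 in untreated cells. That probe gave a change of -0.20 (adjusted p = 0.68), and the dimmest probe one of 0.05. Hdac4 had a log2 fold change of 0.03, Hdac6, the tubulin deacetylase, one of 0.08, and Hdac10, a polyamine deacetylase, one of -0.05.

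Sirtuins are deacylases that use NAD+, and all 6 of the listed ones were measured, with 3 positive and 3 negative values. Sirt7, a chromatin enzyme that removes acetyl groups from lysine 18 of histone H3, had log2 signals of 9.43, 9.45 and 9.21 after IFNγ and 9.30, 9.26 and 9.28 in untreated cells. The untreated arrays lay inside the range of the IFNγ arrays, and the log2 fold change was 0.08 (95% interval -0.15 to 0.32, adjusted p = 0.87 from limma), or 0.16 without IFNγ replicate 3. Sirt3, the main mitochondrial deacetylase, had a log2 fold change of -0.19 (95% interval -0.45 to 0.07, adjusted p = 0.73), and one of -0.09 without IFNγ replicate 3. Sirt1, which deacetylates histones and p53, had a log2 fold change of 0.07, Sirt2, a tubulin deacetylase, one of -0.09, and Sirt6, which acts on lysine 9 of histone H3, one of 0.08. Sirt5, the mitochondrial desuccinylase, was detected on 0 of 3 IFNγ and 2 of 3 untreated arrays. The groups overlapped, and the fitted value was -0.14 (95% interval -0.37 to 0.10, adjusted p = 0.77).

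**Figure D3:**
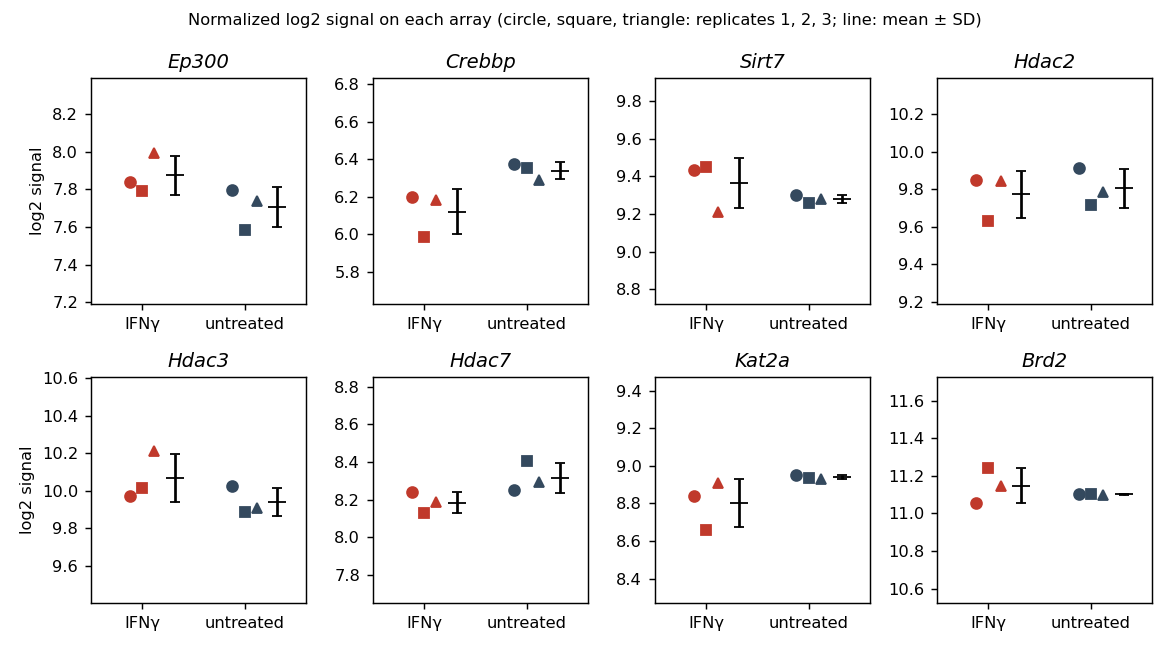
Normalized log2 signal (y axis, a window of equal height in each panel) on each IFNγ and untreated array for 8 genes. Symbols are replicates and bars mean ± SD (n = 3); the IFNγ arrays of Crebbp, Hdac7 and Kat2a lie below all untreated arrays, and in the other 5 panels the groups overlap.

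Among the 28 genes, 3 had groups that did not overlap and were lower after IFNγ (Crebbp, Hdac7 and Kat2a), or 10.7%, where 7.26% of all tested genes did so. None was separated in the other direction, where 6.44% of all genes were. The per-array values of Hdac7 and Kat2a, like those of Hdac5 and Rbbp7, are given because of what the values showed.

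The bromodomain readers bind acetylated lysines and hold transcription factors and elongation factors at active genes. Brd2 had log2 signals of 11.05, 11.24 and 11.15 after IFNγ and 11.10, 11.10 and 11.10 in untreated cells. The untreated arrays lay within the spread of the IFNγ arrays, and the log2 fold change was 0.05 (95% interval -0.18 to 0.27, adjusted p = 0.93 from limma). Its dimmer probes gave 0.14 and 0.28, the last with an unadjusted p of 0.044 and an adjusted p of 0.62. The mean of the Brd2 probes gave 0.15 (adjusted p = 0.73). Brd3 had a log2 fold change of 0.16 (95% interval -0.11 to 0.44, adjusted p = 0.77), and one of 0.07 without IFNγ replicate 3.

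Brd2 lies inside the major histocompatibility complex of chromosome 17, next to genes of antigen processing. In the order of genes in RefSeq, the next 4 tested genes on one side of Brd2 were Psmb9, Tap1, Psmb8 and Tap2, which encode 2 subunits of the immunoproteasome and both chains of the peptide transporter, and all 4 were called higher. Psmb9, Tap1 and Psmb8 were not detected in untreated cells, so only a lower bound on their rise can be given. It was at least 2.39-fold for Psmb9 (adjusted p = 4.35e-06 from limma). Tap1 rose at least 3.74-fold (adjusted p = 5.68e-09), and Psmb8 at least 1.37-fold (adjusted p = 0.0023). The bounds take, on each untreated array, the dimmest detected probe as the floor, unless the gene's own probe read higher. Tap2 was detected on all IFNγ arrays but on only 1 of 3 untreated arrays, and its fitted log2 fold change of 2.60 (adjusted p = 5.60e-09) sets the IFNγ signal against an untreated signal mostly at the background. On the other side, the nearest tested gene, Rxrb, had a log2 fold change of -0.01 (adjusted p = 0.99), and Tapbp, the ninth away, rose by 1.09 (adjusted p = 9.79e-05). This stretch was looked at after the values were seen. Of the 20 tested genes around Brd2, 5 were called higher. None of the other 27 genes had as many called among up to 10 tested genes on each side: Kat2a had 2 (Hap1 and Stat3), Hdac5, Hdac7 and Rbbp4 had 1 each, and 23 had 0.

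**Figure D4:**
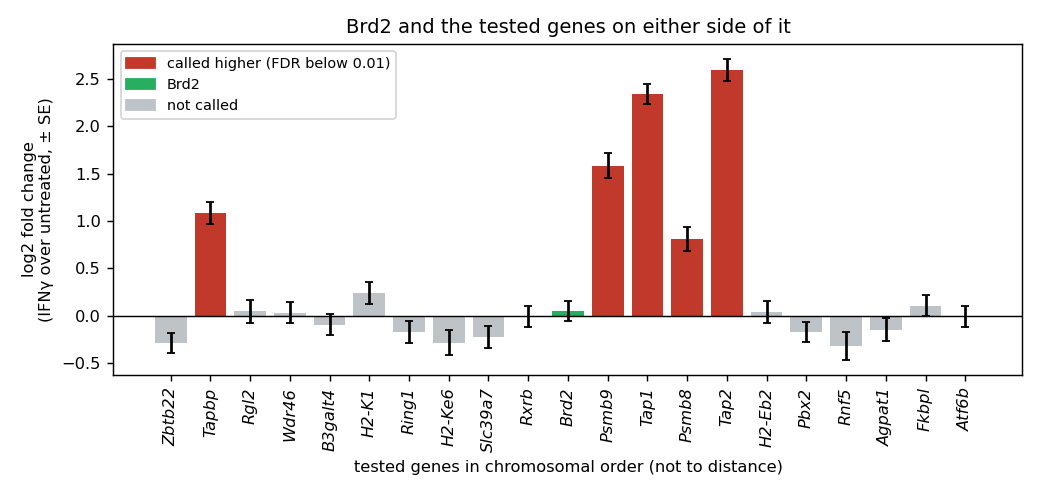
Log2 fold change (y axis, IFNγ over untreated, bars ± standard error from limma) of Brd2 and of the 10 tested genes on each side, in chromosomal order and not to distance. Brd2, at 0.05 by its brightest probe, stands beside Psmb9, Tap1, Psmb8 and Tap2, all called higher. The fitted values of these 4 are set against untreated signals at or near the background and are not the bounds given in the text.

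The promoters of the group were searched for the letters of sites that interferon-activated factors bind, in RefSeq windows from 250 bases before to 50 after a start (GRCm38.p6). The elements were the GAS (gamma-activated site), searched as TTCNNNGAA on both strands, and the ISRE, which IRF factors bind, searched as GAAANNGAAA on both strands. The letters GAA are common to both, so matches can overlap, and the motifs were counted separately. Windows were found for 30 of the 34 genes, 42 windows in all. The GAS letters stood in 5 of them (11.9%), where 8.30% of all 32851 windows had them, and belonged to Brd2, Hdac7, Ncor1 and Sirt7. Among windows of tested genes the share was 6.69%, and among those of the measured genes of the group, which leave out Ncor1, it was 11.1%. The ISRE letters stood in 1 window (2.38%, of Kat5), where 3.44% of all windows and 2.89% of those of tested genes had them. Among the genes called higher, 18.2% of the windows held the GAS and 26.3% the ISRE letters. A match is not a bound site. The windows below give matches of genes that did not pass the test (Hdac7, Sirt7, Brd2 and Kat5) and of genes that rose (Irf1, Psmb8 and Gbp2). Gbp2, an interferon-induced GTPase, rose by 6.72 on the log2 scale (adjusted p = 2.25e-12 from limma). The search fixed most letters of each match, so likeness between the matches was set in advance. Psmb9, Tap1, Tap2 and Tapbp, which also rose, were looked up too and gave no match to print. The motif is in capitals with 25 bases on each side, each read along its gene. For Kat5 and Gbp2 the ISRE lies on the opposite strand, so its letters read in reverse complement.
Irf1, chr11:53769899-53769957, plus strand: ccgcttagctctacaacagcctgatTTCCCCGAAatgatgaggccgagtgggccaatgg
Hdac7, chr15:97831875-97831933, minus strand: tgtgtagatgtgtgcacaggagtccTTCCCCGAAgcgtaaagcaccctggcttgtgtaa
Psmb8, chr17:34198073-34198131, plus strand: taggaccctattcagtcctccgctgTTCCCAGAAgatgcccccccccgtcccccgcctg
Brd2, chr17:34120012-34120070, minus strand: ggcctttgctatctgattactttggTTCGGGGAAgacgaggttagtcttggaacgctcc
Sirt7, chr11:120625072-120625130, minus strand: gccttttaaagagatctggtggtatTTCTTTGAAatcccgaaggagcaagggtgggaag
Gbp2, chr3:142620579-142620638, plus strand: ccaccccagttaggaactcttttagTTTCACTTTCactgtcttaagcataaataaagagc
Kat5, chr19:5610097-5610156, minus strand: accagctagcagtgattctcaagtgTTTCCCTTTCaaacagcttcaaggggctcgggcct

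Hdac7 had 3 GAS matches in 2 of its 4 windows. The one printed, at position -141 from its start, has the same letters as that of Irf1 at -90, TTCCCCGAA, and was picked for that. The others differ, with TTCCGGGAA at -46 from the same start and TTCCCTGAA at -222 from another. Irf1 rose by 2.80 on the log2 scale, whereas Hdac7 had a log2 fold change of -0.13. Which start TC-1/A9 cells use for Hdac7 or for Brd2, which has 3 windows, cannot be read from these arrays.

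The corepressor scaffolds and subunits hold class I deacetylases on chromatin, and 6 of the 7 were measured, 3 with positive and 3 with negative values. Sin3a and Sin3b, the scaffolds of the Sin3 complex, had log2 fold changes of 0.13 and -0.03. Mta1 and Mta2, subunits of NuRD, had log2 fold changes of -0.07 and -0.03, and Rbbp4, a histone-binding subunit of several complexes, one of 0.05. None of these was larger than the spread between arrays, and that of Sin3a was 0.05 without IFNγ replicate 3.

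Rbbp7, the paralog of Rbbp4, varied most within the groups. Its brightest probe had log2 signals of 11.003, 10.947 and 11.724 after IFNγ, against 10.502, 11.314 and 11.143 in untreated cells, an SD of 0.43 in each group. IFNγ replicate 3 was the highest and untreated replicate 1 the lowest array, also for its next brightest probes, which gave changes of 0.24 and 0.19. Without IFNγ replicate 3 the change of the brightest probe was -0.01. The dimmest probe of Rbbp7 differed in the other direction, at 6.06, 6.10 and 6.12 after IFNγ and 6.51, 6.40 and 6.29 in untreated cells, and was detected on 1 of 3 IFNγ and 3 of 3 untreated arrays. Its change of -0.30 had an unadjusted p of 0.013 and an adjusted p of 0.40 from limma. The transcripts that each probe reads were not compared here. Of the other genes with several probes, Hdac5 had changes of -0.21, -0.20 and 0.05, Kat5 of -0.04 and 0.08, and Rbbp4 of 0.05 and 0.03.

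**Figure D5:**
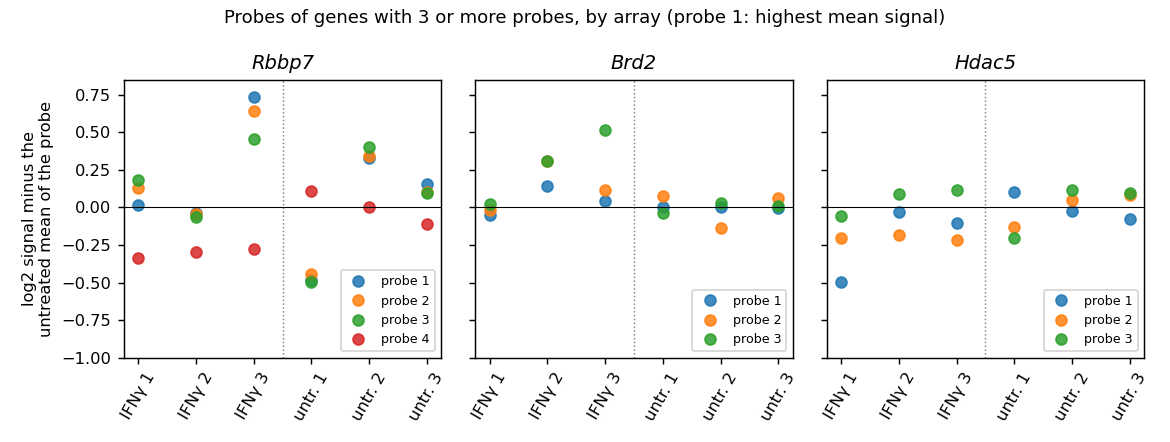
Log2 signal of each probe minus its own untreated mean (y axis) on each array (x axis) for the 3 genes with at least 3 probes, numbered from the brightest. The brightest 3 probes of Rbbp7 move together across arrays, highest on IFNγ replicate 3, while its dimmest probe lies lower on all IFNγ arrays than on any untreated array.

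A wider list of 122 genes of the same machinery, listed by name with earlier results of these data known, held 81 that were measured. Of these, 0 were called higher and 0 lower, with log2 fold changes from -0.45 to 0.44 and a median of -0.03. Without adjustment, at p under 0.05, 2 were higher (2.47%: Ep400 and Msl2) and 5 lower (6.17%: Yeats4, Tbl1x, Mta3, Msl1 and Ruvbl1), beside 4.42% and 4.07% of all genes. Chd4, the remodelling ATPase of NuRD, had a change of -0.16, Kdm1a, the demethylase of the CoREST complex, of -0.14, and Acly, which makes acetyl-CoA from citrate, of 0.17. Kat7 and Kat8, acetyltransferases of the MYST family, had log2 fold changes of 0.14 and -0.16.

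The extremes of the wider list were Ep400 and Yeats4, named here after their values were seen. Both are linked to the NuA4 complex of Kat5, but they went in opposite directions, and Kat5 itself had a change of -0.04. Ep400, the remodelling ATPase of that complex, had log2 signals of 9.91, 10.16 and 10.43 after IFNγ and 9.70, 9.64 and 9.85 in untreated cells. Its change was 0.44 (SE 0.13) with an adjusted p of 0.25 from limma. Yeats4, an acetyl-lysine reader of the same complex, had 8.55, 8.34 and 8.19 after IFNγ, against 8.78, 8.98 and 8.65 in untreated cells, giving a change of -0.45 (SE 0.13) with an adjusted p of 0.19. In both genes the groups did not overlap and IFNγ replicate 3 was the farthest array from the untreated ones, and neither passed the test. Such separation was not particular to them. Of the 81 measured genes of the wider list, 5 had groups that did not overlap and were higher after IFNγ, and 9 were lower. Among all tested genes 6.44% were so separated and higher, and 7.26% lower.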

How the data were processed

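The deposited files hold, from BeadStudio, the average bead intensity of every probe, linear and not normalized, and its detection p-value against negative controls. The authors also deposited a log2 value table of 12421 probes, made with lumi and limma. The log2 intensities quantile normalized here over all 45281 probes matched it to within 4.97e-14. The background setting of the export and the slide of each array are not given in the sources used here.

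Following the paper's methods, a probe was kept if its detection p was 0.01 or less on at least 1 array. IFNγ was compared with untreated over the 13545 kept probes by limma 3.58.1 (lmFit, eBayes) in R 4.3.3, two-sided, and p-values were adjusted over all of them by the Benjamini-Hochberg method. The fit was first tested on simulated data. Gene names came from the platform annotation updated through RefSeq; 11180 probes had 1 symbol and 2365 tested probes were unnamed. Members, the wider list and the named genes (all members; fixed wider-list genes and any called) were chosen with earlier results of these data known. Members are not replicates, and no test was run over them as a set. The number of arrays limits the precision. Some items are not reported here.

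Alternatives were neqc or normexp background correction, centring on the 75th percentile, cyclic loess, the value table, other filters, array weights, eBayes with trend and robust settings, a replicate block, leaving out 1 array at a time, an FDR below 0.05 and the mean of a gene's probes.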

Additional observations from a re-analysis of the deposited data

How the results depend on the processing

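The counts of 0 genes called higher and 0 called lower held under all 18 alternatives, the 6 that leave out an array among them. The smallest adjusted p that any of the 28 genes reached was 0.093, for Hdac5 with array weights, which gave IFNγ replicate 3 a weight of 0.23; Crebbp or Hdac5 had an unadjusted p under 0.05 in 6 of the 500 values. The median log2 fold change of the genes was 0.0015 and ran from -0.016 to 0.039 without each array in turn. With 75th percentile centring it was -0.050, where the median of all genes was -0.059. The sign of the change held under every alternative for 12 of the 28 genes and turned under at least 1 for the other 16, always without a call. The largest change under any alternative was 0.40, for Rbbp7 without untreated replicate 2. The replicate number as a block also gave 0 and 0 calls, with a median of 0.0015, and the numbers need not pair the samples, since deviations of arrays with the same number correlated at -0.19, 0.043 and -0.025. The 4 genes not detected on all 6 arrays (Crebbp, Kat2b, Sirt5 and Sirt6) lie near the background, where a change is understated. It can also be understated for other dim genes, since no background was subtracted in the main fit.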
